A study of Mus musculus with 4 samples.

Results

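Of the 5459 nuclei of the w4 library, 1628 had counts but no column in the authors' expression table, and 1625 of these had at least 1000 detected features and at most 1% of UMIs from mitochondrial genes. These 1625 left-out nuclei are described here, chosen by their absence from the table and not by the expression of any gene. They were set against the 2442 w4 nuclei that the authors kept as granule cells, namely 1979 of GCyoung, 403 of GCmat1 and 60 of GCmat2. All 4 libraries (w1, w2, w4 and w8) hold 17046 nuclei. The mice carried a tamoxifen-inducible Cre and a floxed-stop CAG allele of Sun1 fused to sfGFP, on a C57Bl/6J background. Males and females aged 6 to 8 weeks received tamoxifen and were killed 1, 2, 4 or 8 weeks later, the left dentate gyri of 4 mice were pooled per week, and fluorescent nuclei were sorted and sequenced. The kept and the left-out nuclei of w4 therefore come from the same pool, the same sort and the same library, and no untreated group exists. With 1 pool per week no test between groups was possible, and the intervals below cover counting error only.

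Granule cells are the excitatory projection neurons of the dentate gyrus and are added throughout adult life. They arise from radial glia-like stem cells (RGL) through progenitors (NPC), neuroblasts (NB) and immature granule cells (GCimm). Recombination marks the nuclear envelope of a cohort and of its progeny, so that the nuclei of w4 include many young granule neurons. The authors removed nuclei at several steps, among them doublets, nuclei of low quality and mostly male w4 nuclei whose expression had no counterpart in a second dataset of theirs. The files do not give the step at which any 1 nucleus was removed. Because a nucleus could be left out for its expression, the differences below describe the left-out nuclei and are no independent evidence that they form a separate kind of cell.

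Left-out nuclei were far more frequent in w4 than in the other weeks. They made up 29.8% of w4 barcodes (95% interval 28.6 to 31.0), against 9.89% in w1, 7.65% in w2 and 7.26% in w8 under the same filters. The left-out nuclei of w4 held 15774561 UMIs with a median of 8948 per nucleus, and the kept granule nuclei 19847916 UMIs with a median of 7648.5. Thinned to 2000 UMIs each, left-out nuclei had a median of 1009 features and kept granule nuclei 1098. Of the w4 barcodes 17 also occurred in another library, and only 1 of these was left out.

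Sex was read from each nucleus by its UMIs. Nuclei with more from the Y-linked genes Eif2s3y, Ddx3y and Uty than from Tsix plus Xist were called male-class, and those with fewer female-class. Of the left-out nuclei 1055 were male-class (64.9%, 62.5 to 67.2), 407 female-class (25.0%) and 163 unclassed. Of the kept granule nuclei only 14.1% (12.8 to 15.6) were male-class and 83.6% female-class. The left-out nuclei were thus mostly male-class and the kept granule nuclei mostly female-class, although both came from 1 pool of 4 mice. How many mice gave the male-class nuclei cannot be told from the files.

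The left-out nuclei fell into 3 parts when all w4 nuclei were grouped into 10 communities by their expression. Community 1 held 1034 nuclei, of which 1028 (99.4%) were left out and 81.5% were male-class. Community 8 held 305 nuclei, of which 178 (58.4%) were left out and 72.5% were male-class, and its kept nuclei were mostly immature granule cells. These 2 communities together held 1206 left-out nuclei (74.2%, 72.0 to 76.3). The remaining 419 left-out nuclei were spread over communities made up mostly of kept nuclei, though only narrowly so in community 10, where 49.5% were left out. They were 77.3% female-class.

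**Figure D1:**
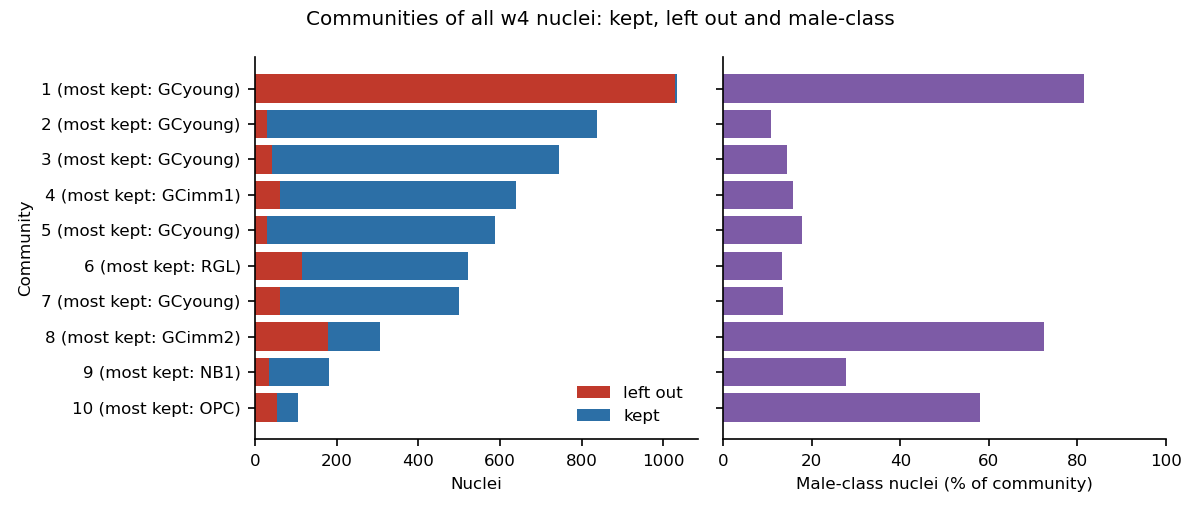
Left, number of left-out (red) and kept (blue) nuclei in each of the 10 communities of w4, named by the deposited cluster most frequent among their kept nuclei; right, male-class nuclei as a percent of each community. Community 1 is almost wholly left out (1028 of 1034), and communities 1 and 8 have the highest shares of left-out nuclei (99.4% and 58.4%) and of male-class nuclei (81.5% and 72.5%) of the 10.

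Measures of quality differed between the 3 parts. The highest mitochondrial share of any kept w4 nucleus was 0.0716%, and 158 left-out nuclei exceeded it. Of these, 154 were among the 419 nuclei outside communities 1 and 8 (36.8%), 3 were in community 1 and 1 in community 8. A doublet caller (Scrublet) marked 160 left-out nuclei (9.85%) and 10 of all 3831 kept nuclei (0.261%). It marked 86 of the 419 nuclei (20.5%) and 74 of the 1206 (6.14%). Of the 419 nuclei, 239 were called doublets or exceeded the mitochondrial range of kept nuclei, and 180 did neither. The part of doublets and of mitochondrial RNA in the differences below was not tested, beyond the values given without these nuclei.

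Most left-out nuclei lay nearest to a granule cell cluster. By correlation with the mean expression of each deposited cluster, 810 (49.8%) lay nearest to GCmat1, 318 (19.6%) to GCmat2 and 239 (14.7%) to GCyoung, in all 84.1% (82.3 to 85.9). By the same measure 83.9% of kept nuclei lay nearest to their own cluster, but only 75.1% of GCyoung. The median correlation with GCmat1 of the 810 left-out nuclei nearest to it was 0.804, against 0.883 for the kept nuclei of that cluster. A further 64 lay nearest to GCimm2, 56 to GCimm1, 58 to RGL, 26 to NB1, 21 to oligodendrocytes and 18 to astrocytes. The male-class share was 78.4% of the left-out nuclei nearest to GCmat1 and 80.8% of those nearest to GCmat2, where the kept nuclei of the same clusters held 8.93% and 11.7%. Among left-out nuclei nearest to RGL it was 6.90%, and 89.7% of these were female-class. None of the left-out nuclei nearest to RGL, neuroblasts, NPC, astrocytes or oligodendrocytes belonged to communities 1 or 8.

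The identity of granule neurons was checked with 9 genes. Prox1, the transcription factor that specifies granule cells, was at 386 counts per 1e6 UMIs (CPM) in left-out nuclei and 442 CPM in kept granule nuclei. The median log2 ratio of the 9 genes was -0.11, close to the median of -0.16 over the 11037 autosomal genes with at least 100 UMIs in both groups together. All ratios below are left-out over kept on this scale, so a gene that kept pace with the rest sits near -0.16 and not at 0. The nuclear RNA Malat1 took 113912 CPM of left-out and 75913 CPM of kept UMIs. Only Glis3 (log2 ratio 1.04), a transcription factor, and Plk5 (-1.94), a polo-like kinase of postmitotic neurons, passed 2-fold among the 9. Of all genes tested 5.24% were at least 2-fold higher and 4.76% lower. Glis3 passed against GCyoung (1.17) but not against GCmat1 (0.63) or GCmat2 (0.49). Between female-class nuclei neither passed, with Glis3 at 0.46 and Plk5 at -0.51. Defining genes of pyramidal neurons of CA1 reached a summed level of 6.40 CPM in left-out and 5.14 CPM in kept granule nuclei. Those of mossy cells were at 9.64 and 6.85 CPM, and those of pericytes or leptomeninges at 9.95 and 4.28 CPM. Of these lists only Calcrl among the mossy cell genes had the 100 UMIs needed.

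The 4 genes that mark the left-out nuclei are an extracellular protease, a sorting receptor, a hormone receptor and a collagen chain. Tll1 (tolloid-like 1) encodes a metalloprotease that cleaves chordin and procollagens, and lies at chr8:64014931-64206271 of GRCm38 on the minus strand. Sorcs3 encodes a sorting receptor of the sortilin family, at chr19:48206025-48805505 on the plus strand. Prlr encodes the prolactin receptor, which signals through JAK2 and STAT5, at chr15:10177238-10349180 on the plus strand. Col5a2 encodes a chain of the fibrillar collagen V, at chr1:45374321-45503282 on the minus strand. UMIs were counted over exons and introns, so these are levels over the whole gene.

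Tll1 was at 467 CPM (456 to 478) in left-out nuclei and 16.6 CPM (14.9 to 18.5) in kept granule nuclei, a log2 ratio of 4.81 (4.65 to 4.97). Sorcs3 was at 468 CPM (457 to 478) against 25.9 CPM (23.8 to 28.3), a log2 ratio of 4.17 (4.04 to 4.30). Prlr was at 224 CPM (217 to 232) against 3.02 CPM (2.31 to 3.89), a log2 ratio of 6.21 (5.85 to 6.61). Col5a2 was at 117 CPM (112 to 123) against 2.77 CPM (2.09 to 3.61), a log2 ratio of 5.41 (5.02 to 5.82). The 4 genes were named as markers with earlier results of these data known. Their higher levels here are therefore a description and not a test. Together the 4 genes were at 1276 CPM in left-out and 48.4 CPM in kept granule nuclei, and the log2 ratio of these sums was 4.72.

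The markers were found in many nuclei and not in a few. A Tll1 UMI was seen in 64.2% of left-out nuclei and 8.15% of kept granule nuclei, and after thinning to 2000 UMIs in 41.6% and 2.50%. For Prlr the shares were 49.3% and 2.09%, and after thinning 25.7% and 0.696%. No kept oligodendrocyte of w4 had a Tll1 or Prlr UMI (0 of 16, median depth 4803 UMIs), but together they held 3 UMIs of Sorcs3 and 1 of Col5a2. With each nucleus thinned, at least 2 of the 4 genes were seen in 39.0% (36.6 to 41.4) of left-out nuclei and 0.328% (0.142 to 0.644) of kept granule nuclei. In community 1 this share was 58.7%, in the left-out nuclei of community 8 it was 15.7%, and in the other 419 nuclei 0.716%.

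**Figure D2:**
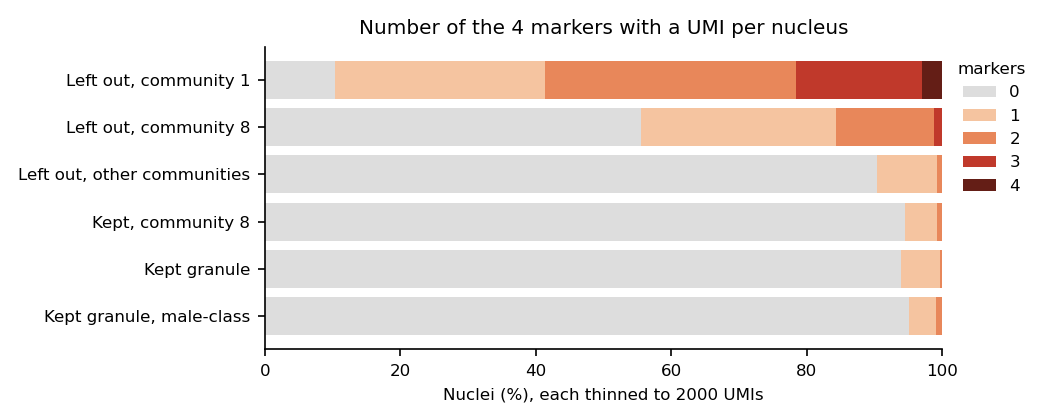
Share of nuclei, each thinned to 2000 UMIs, in which 0, 1, 2, 3 or 4 of Tll1, Sorcs3, Prlr and Col5a2 had a UMI, by group of w4 nuclei. Of the left-out nuclei of community 1 only 10.4% had none, against 93.9% of the kept granule nuclei and 90.5% of the left-out nuclei of other communities.

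The communities rest on the expression of the same nuclei and the 4 markers are among the leading genes of community 1, so their levels there are a description only. Their summed level was 1792 CPM (1767 to 1818) in community 1 and 411 CPM (381 to 443) in the left-out nuclei of community 8, but 89.4 CPM (79.7 to 100) in the other 419 nuclei. In community 8 the kept nuclei were at 55.5 CPM (39.8 to 75.3), and the 80 of them that were male-class at 31.1 CPM (17.4 to 51.2). The kept nuclei of community 8 were mostly of GCimm1 and GCimm2, whereas 1174 of the 1206 left-out nuclei of communities 1 and 8 lay nearest to GCyoung, GCmat1 or GCmat2, so the groups differ in stage as well. Tll1 and Prlr carried the level in community 8, at 206 and 149 CPM in its left-out nuclei, where Sorcs3 was at 23.9 CPM. In community 1 Sorcs3 was at 669 CPM and Tll1 at 650 CPM.

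The nearest cluster was also assigned from expression, in which Sorcs3 marks GCmat2, so the levels by nearest cluster are a description too. Sorcs3 was at 37.1 CPM (30.3 to 44.9) in left-out nuclei nearest to GCyoung, 355 CPM (342 to 368) nearest to GCmat1 and 1255 CPM (1218 to 1293) nearest to GCmat2. The same order held for Tll1, at 94.8, 553 and 732 CPM. Prlr was highest nearest to GCmat1, at 313 CPM (301 to 326) against 242 CPM (226 to 259) nearest to GCmat2 and 44.2 CPM nearest to GCyoung. Left-out nuclei nearest to RGL held 3 UMIs of Tll1, 1 of Sorcs3, 4 of Prlr and 5 of Col5a2. Their summed level was 62.8 CPM (33.4 to 107), against 48.4 CPM in kept granule nuclei. Those nearest to oligodendrocytes held 2 UMIs of Sorcs3 and none of Tll1, Prlr or Col5a2.

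Among the kept granule clusters, GCmat2 alone came near the left-out nuclei, and in Sorcs3 only. Sorcs3 was at 758 CPM (680 to 843) in the 60 kept GCmat2 nuclei, above the 468 CPM of left-out nuclei, with a log2 ratio of -0.70 (-0.85 to -0.54). Tll1 was at 86.2 CPM (61.3 to 118) in GCmat2, 6.10 CPM in GCmat1 and 17.0 CPM in GCyoung. Prlr had 3 UMIs in GCmat2, so that its ratio of 33.8 to that cluster is known only to within a log2 range of 3.53 to 7.36. Col5a2 had no UMI in GCmat2, and its level in left-out nuclei was at least 17.7-fold higher than the 3 counts that a count of 0 allows there. In all, the summed markers of left-out nuclei exceeded those of GCmat2 by 0.58 on the log2 scale, and those of GCyoung and GCmat1 by 5.41 and 5.51. Outside the granule lineage Col5a2 was at 967 CPM in the pericytes of w1, and Sorcs3 at 664 CPM in the oligodendrocyte precursor cells of w4.

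The markers were higher in left-out nuclei within each sex class. In male-class nuclei the summed markers were at 1581 CPM (1557 to 1605) in the 1055 left-out nuclei and 54.9 CPM (46.7 to 64.2) in the 345 kept granule nuclei. In female-class nuclei they were at 369 CPM (351 to 389) in the 407 left-out nuclei and 46.7 CPM (43.5 to 50.1) in the 2041 kept. The log2 ratio was thus 4.85 between male-class and 2.98 between female-class nuclei. Kept male-class and kept female-class granule nuclei had overlapping intervals for Prlr, at 3.82 CPM (1.91 to 6.84) and 2.95 CPM (2.18 to 3.90). Of the female-class left-out nuclei 134 (32.9%) were called doublets, and the other 273 were at 322 CPM (299 to 347).

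**Figure D3:**
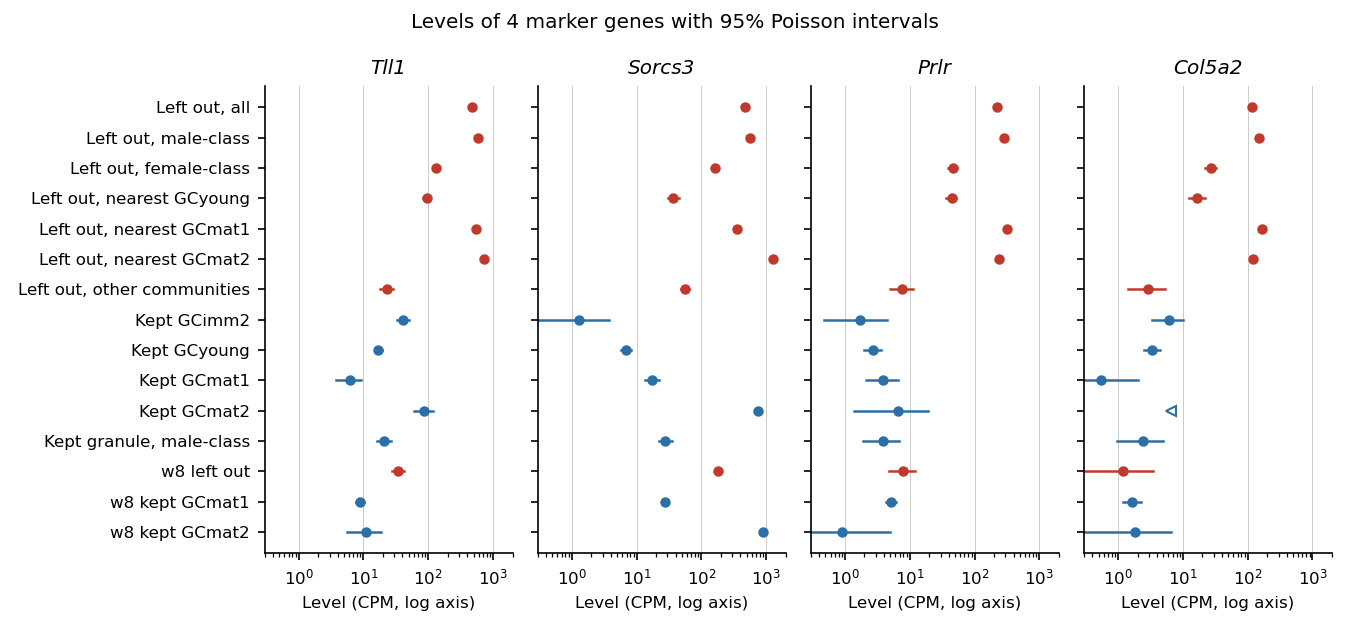
Levels of Tll1, Sorcs3, Prlr and Col5a2 in CPM on a log axis, with exact 95% Poisson intervals as lines, in left-out (red) and kept (blue) nuclei of w4 and w8; the open triangle is the level that 3 counts would give in a group with no UMI. The left-out nuclei nearest to GCmat1 and GCmat2 lie above the kept nuclei of those clusters in each of the 4 genes, most narrowly for Sorcs3 in GCmat2, where 1255 CPM compares with 758 CPM.

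Over all 11037 autosomal genes tested, 578 (5.24%) were at least 2-fold higher and 525 (4.76%) at least 2-fold lower in left-out nuclei. Against GCyoung alone 5.36% of the genes tested were higher and 5.02% lower, against GCmat1 alone 6.69% and 3.57%, and against GCmat2 alone 11.2% and 6.15%. The balance turned with the nuclei used, with 413 higher and 1536 lower for communities 1 and 8, 458 and 783 between male-class nuclei, and 440 and 37 between female-class nuclei. With TMM scaling, which centres the ratios, the counts were 692 higher and 331 lower. At a 4-fold size, 230 genes were higher and 22 lower with all left-out nuclei pooled. The 4-fold count was not made for communities 1 and 8 or for either sex class alone. By gene span, 11.5% of the 2760 genes with the longest spans were at least 2-fold higher and 7.10% lower, against 3.04% and 3.88% of the 2759 with the shortest. On each autosome 3.04% to 7.69% of the genes tested were higher and 2.27% to 7.42% lower. None of 73 ribosomal protein genes and 2 of 75 genes of the respiratory chain passed 2-fold.

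The genes with the 15 highest and the 15 lowest ratios were taken from autosomal genes with at least 500 UMIs over both groups and a UMI in at least 10% of the nuclei of the higher group. Among the 15 highest, besides the 4 markers, were adaptors, adhesion molecules and enzymes. Lhfp, a tetraspan membrane protein gene, was at 361 CPM against 5.69 CPM (log2 ratio 5.99). Stac, an adaptor of voltage-gated calcium channels, was at 76.1 against 1.36 CPM (5.81). Blnk, an adaptor best known from B-cell receptor signalling, was at 137 against 2.87 CPM (5.58). Sorcs1, a second sortilin-family receptor, was at 78.0 against 1.66 CPM (5.55). All 4 exceeded every deposited cluster of kept neurons with at least 10 nuclei in any week. This is a description, since the genes were chosen by their ratio to kept granule nuclei. Stac and Blnk also exceeded every other kept cluster of that size. Lhfp was at 1363 CPM in the pericytes of w1, and Sorcs1 at 1320 CPM in the oligodendrocyte precursor cells of w8. Within community 8, however, Lhfp was higher in the kept nuclei (290 CPM) than in the left-out nuclei (219 CPM). Stac (2.71 against 14.9 CPM) and Blnk (1.35 against 17.3 CPM) were lower in the kept than in the left-out nuclei there. Sorcs1 was low in both, at 1.35 CPM in the kept and 2.39 CPM in the left-out nuclei, near the 1.66 CPM of kept granule nuclei.

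Gxylt2, a xylosyltransferase that modifies Notch, was at 68.1 against 2.02 CPM (log2 ratio 5.08). Sdk1, a homophilic adhesion molecule of synapses, was at 498 against 21.0 CPM (4.57), but the kept neuroblasts of cluster NB2 in w4 were at 538 CPM. In community 8 it was at 604 CPM in the kept and 256 CPM in the left-out nuclei. Pappa, a protease of insulin-like growth factor binding proteins, was at 57.3 against 2.82 CPM (4.34), and Serinc2, a serine incorporator, at 84.6 against 4.28 CPM (4.30). Like Sorcs3, Pappa was higher in GCmat2 than in left-out nuclei, at 106 CPM and a log2 ratio of -0.89. Serinc2 was at 57.5 CPM in GCmat2.

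The other 3 of the 15, namely 2610203C20Rik, Rgs20 and Ptprt, had their highest left-out levels outside communities 1 and 8. 2610203C20Rik, the long transcript over the genes of Mir100, Mirlet7a-2 and Mir125b-1, was at 561 CPM in those 419 nuclei and 16.1 CPM in community 1, and was highest among kept nuclei in the RGL of w1, at 4466 CPM. Rgs20, a regulator of G protein signalling, was at 420 and 11.1 CPM, with 3677 CPM in the RGL of w1. Ptprt, a receptor tyrosine phosphatase, was at 187 and 25.6 CPM, with 2176 CPM in the astrocytes of w1. In these 3 genes left-out female-class nuclei were above left-out male-class nuclei, at 424 against 35.2, 331 against 16.4 and 140 against 29.4 CPM. In the other 12 genes left-out male-class nuclei were higher. The 15 were chosen in a left-out group that was mostly male-class, and no share over all genes is given for this comparison, so it is a description only. The 16th gene in order was Epha10, with a log2 ratio of 4.01.

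The 15 lowest genes had smaller ratios, between -2.26 and -1.85. Rab27a, a GTPase of vesicle docking, was at 4.88 CPM in left-out and 23.4 CPM in kept granule nuclei (log2 ratio -2.26), and Prtg, a receptor of the immunoglobulin superfamily, at 8.11 against 38.5 CPM (-2.25). Ntf3, the neurotrophin that binds TrkC, was at 18.3 against 84.1 CPM (-2.20), and Tgfbr1, the type I receptor of TGF-beta, at 39.6 against 153 CPM (-1.95). Slc44a5, a choline transporter-like gene, was the most abundant of the 15, at 112 against 405 CPM (-1.85). The enzymes Csgalnact1 (chondroitin sulfate synthesis, -2.07) and B3galt5 (a galactosyltransferase, 7.73 CPM in left-out nuclei), the splicing regulator Rbm24 (-1.96), Rap1gap2 (an activator of the Rap1 GTPase, -1.93) and Hspa12a (-1.88) followed. The rest were Vwa3a (-2.15), Susd1 (-1.98), Plk5, the transcript Gm12216 (-1.97) and the antisense RNA 4732463B04Rik (-2.20).

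Of these 15, 12 were lower in left-out nuclei than in GCyoung, GCmat1 and GCmat2 of both w4 and w8. The exceptions were Ntf3, Vwa3a and B3galt5, which were lower still in GCmat2 of w4, at 15.5, 4.42 and 4.42 CPM. These rest on 7, 2 and 2 UMIs, and the 3 intervals of the log2 ratio to GCmat2 include 0. The same holds for 2 of the 12, Prtg (-2.15 to 0.12) and Csgalnact1 (-1.06 to 0.27). All 15 were at least 2-fold lower in left-out than in kept male-class nuclei, where Tgfbr1 was at 11.7 against 162 CPM and Vwa3a at 2.64 against 45.5 CPM. Between female-class nuclei the ratios of all 15 were within 2-fold, from -0.95 for Rbm24 to -0.31 for Tgfbr1. Among female-class nuclei alone, only 37 of 9992 genes (0.37%) were at least 2-fold lower and 440 (4.40%) were higher. Among male-class nuclei 783 of 8272 (9.47%) were lower and 458 (5.54%) higher. Restricted to left-out nuclei nearest to granule clusters and not called doublets, 169 were higher and 141 lower between female-class nuclei. Between male-class nuclei 425 were higher and 904 lower. This restriction was added after seeing the data. The left-out nuclei of the sex classes differ in cell mix, and whether the classes differ in these counts was not tested.

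**Figure D4:**
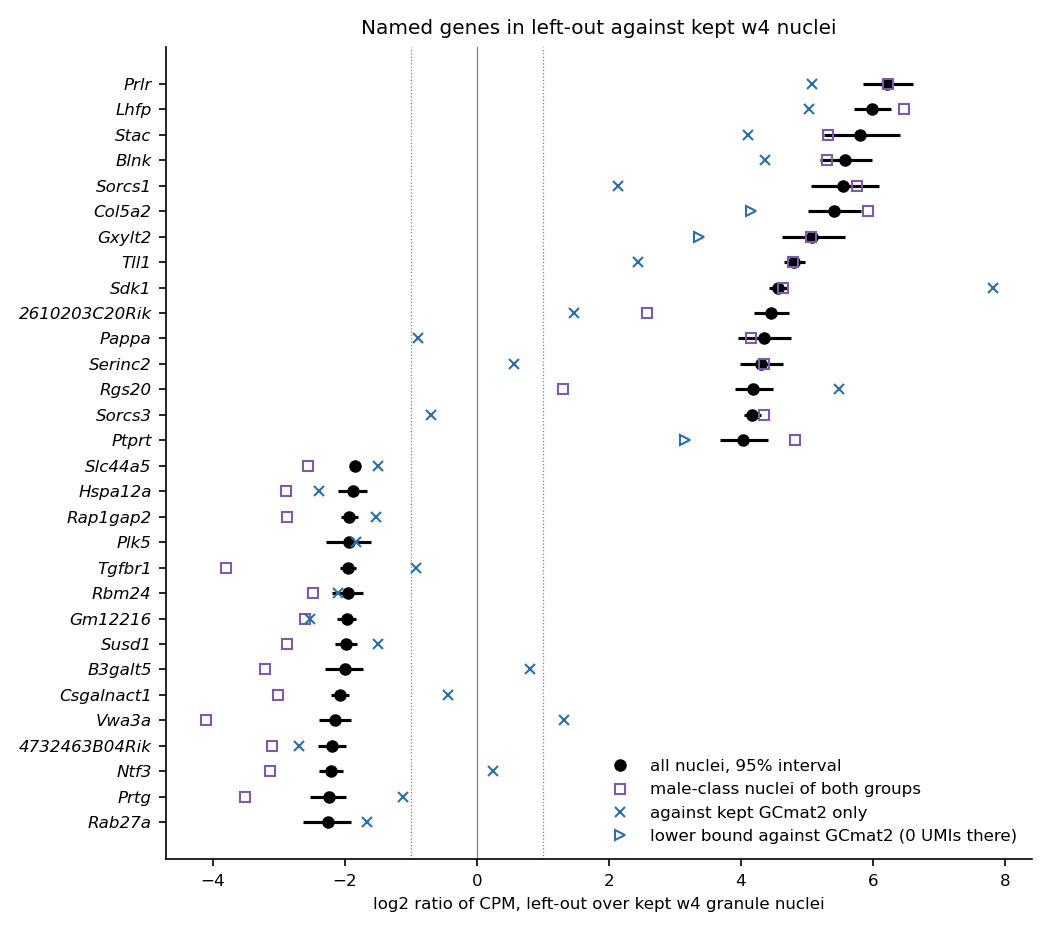
log2 ratio of CPM, left-out over kept w4 granule nuclei, for the 4 markers and the 15 highest and 15 lowest genes (30 genes in all), with 95% intervals for all nuclei (black), for male-class nuclei of both groups (purple squares) and against GCmat2 alone (blue crosses, or triangles for lower bounds where GCmat2 had no UMI); dotted lines mark 2-fold. Ratios to GCmat2 lie below 0 for Sorcs3 and Pappa and above 0 for Ntf3, Vwa3a and B3galt5, and that of Sdk1 rests on 1 UMI in GCmat2.

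For 3 of the 4 markers, the set of RefSeq (GRCm38.p6) promoters used here held the sequence before a transcription start. It is printed because these genes mark the left-out nuclei. The set used had no entry for Col5a2. The 250 bases upstream of each start were searched on both strands for the AP-1 site TGANTCA and the cAMP response element TGACGTCA, which bind the Fos/Jun and CREB factors of neuronal activity, and matches are in capitals. Tll1 is read at chr8:64206009-64206258 on the minus strand, Sorcs3 at chr19:48205775-48206024 on the plus strand, and Prlr at its starts 1 and 3, chr15:10176988-10177237 and chr15:10293401-10293650, both on the plus strand. The RefSeq starts of Tll1 and start 3 of Prlr lie inside the gene spans given above, which come from GENCODE, so these stretches are upstream of the RefSeq start only.
Tll1: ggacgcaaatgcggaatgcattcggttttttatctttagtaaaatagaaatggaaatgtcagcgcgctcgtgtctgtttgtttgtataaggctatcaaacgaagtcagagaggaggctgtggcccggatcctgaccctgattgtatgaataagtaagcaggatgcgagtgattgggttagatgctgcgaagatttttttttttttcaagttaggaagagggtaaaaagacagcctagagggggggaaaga
Sorcs3: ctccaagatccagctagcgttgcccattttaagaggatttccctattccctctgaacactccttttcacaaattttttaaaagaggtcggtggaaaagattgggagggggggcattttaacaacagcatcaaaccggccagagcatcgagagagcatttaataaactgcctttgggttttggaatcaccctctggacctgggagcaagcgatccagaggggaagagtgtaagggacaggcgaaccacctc
Prlr, start 1: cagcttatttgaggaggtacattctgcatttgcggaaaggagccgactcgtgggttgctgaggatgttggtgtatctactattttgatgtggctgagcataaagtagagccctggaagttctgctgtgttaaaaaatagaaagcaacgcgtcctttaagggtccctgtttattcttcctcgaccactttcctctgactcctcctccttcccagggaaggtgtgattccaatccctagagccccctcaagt
Prlr, start 3: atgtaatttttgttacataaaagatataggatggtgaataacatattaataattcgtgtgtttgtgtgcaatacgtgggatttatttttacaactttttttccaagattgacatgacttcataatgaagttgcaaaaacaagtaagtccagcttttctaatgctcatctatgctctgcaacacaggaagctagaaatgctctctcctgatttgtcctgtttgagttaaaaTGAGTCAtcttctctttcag
The only match was 1 AP-1 site before start 3 of Prlr. Of the 428 higher genes with a listed promoter 24 (5.61%) held the AP-1 letters and 11 (2.57%) the cAMP response element, against 4.84% and 3.31% of the 8094 tested genes with one. Of the 347 lower genes 27 (7.78%) held the AP-1 letters and 4 (1.15%) the cAMP response element. Over all 27025 genes with a listed promoter the shares were 7.82% and 1.77%. UMI counts do not tell which start was used.

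Immediate early genes are switched on within minutes of neuronal activity, and late response genes follow them. Of 13 immediate early genes tested, 7 were at least 2-fold higher and none lower, with a median log2 ratio of 1.00, where 5.24% of all genes tested were higher and 4.76% lower. Over all genes these shares were 5.54% and 9.47% between male-class nuclei, 4.40% and 0.37% between female-class nuclei, and 3.91% and 14.6% with only the left-out nuclei of communities 1 and 8. Between female-class nuclei 1 of 7 was higher, with a median of 0.81. Fosl2, an AP-1 subunit, was at 13.8 against 1.71 CPM (3.01), Arc, a synaptic capsid-like protein, at 8.49 against 1.51 CPM (2.49), and Nr4a1, an orphan nuclear receptor, at 5.20 against 1.51 CPM (1.78). Egr1 (0.18) and Jun (0.24) stayed within 2-fold, and Btg2 and Nr4a3 were at -0.60 and -0.56. With only the left-out nuclei of communities 1 and 8, 6 of 12 were higher and 1, Nr4a3 (-2.02), was lower. Jun, at 35.6 CPM, had the highest level of the list in left-out nuclei.

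Of 16 late activity-response genes tested, 8 were at least 2-fold higher and none lower (5.24% and 4.76% of all genes), with a median of 0.92, Sorcs3 being 1 of the 8. Between female-class nuclei 1 of 9 was higher, with a median of 0.21, and Bdnf was at 0.22 and Inhba at 0.31. Baz1a, a chromatin remodelling subunit, was at 10.7 against 0.705 CPM (3.92), Nptx2, a synaptic pentraxin, at 23.3 against 2.87 CPM (3.02), and Ptgs2, the inducible cyclooxygenase, at 9.57 against 1.56 CPM (2.62). Bdnf, the neurotrophin that binds TrkB, was at 273 against 115 CPM (1.25), and Inhba, the activin subunit, at 84.9 against 33.8 CPM (1.33). Against GCmat2 alone the median of both lists was near 0, at -0.02 for the immediate early and 0.03 for the late genes, with members on both sides. There 4 of 10 immediate early genes were higher and 3 lower, and 2 of 14 late genes higher and 3 lower (11.2% and 6.15% of all genes). Homer1 was at 108 CPM against 109 CPM in all kept granule nuclei, and at -1.16 against GCmat2.

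The other genes of the pathways of the 4 markers were on both sides of 0. Each list counted here and in the next paragraph includes its marker, whose direction was known when the lists were made. Of 8 genes of prolactin receptor signalling, Prlr, Stat5b (10.3 against 3.27 CPM, 1.66) and the adaptor Grb2 (145 against 63.3 CPM) were at least 2-fold higher (5.24% of all genes), while Jak2 (-0.25), Stat3 (-0.49) and Ghr (-0.04) were not. Stat5b is not counted among male-class nuclei, having too few UMIs there, and was at 2.54 between female-class nuclei but at 0.93, within 2-fold, with only the left-out nuclei of communities 1 and 8. Grb2 was at 0.37 between female-class nuclei. Of 9 sortilin-family and neurotrophin genes, Sorcs1, Sorcs3, Ntrk2 (1150 against 350 CPM, 1.72) and Bdnf were higher and Ntf3 lower (5.24% and 4.76% of all genes). Ntrk2 encodes TrkB, the receptor of BDNF, and was within 2-fold between female-class nuclei (0.77) and against GCmat2 (0.73), and Ntrk3, the receptor of NT-3, was at 0.05.

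Of 22 BMP and activin pathway genes, Tll1 included, 8 were at least 2-fold higher and 2 lower (5.24% and 4.76% of all genes), with a median of 0.24. With only the left-out nuclei of communities 1 and 8, 6 of 18 were higher and 5 lower, where 3.91% and 14.6% of all genes were. Beside Tll1 the higher genes included the receptors Acvr1c (293 against 58.0 CPM, 2.34) and Bmpr1b (14.5 against 0.957 CPM, 3.92), the inhibitory Smad7 (1.42) and Smad3 (1.22). Bmp6 (8.75 against 29.3 CPM, -1.74) and the receptor Acvr2a (-1.07) were lower. Against GCmat2 alone Acvr1c was within 2-fold (0.94), whereas Bmpr1b (1.71) and Smad7 (2.56) still passed. In that comparison Smad3 was at -0.40, Bmp6 at 0.40 and Acvr2a at 0.22. Between female-class nuclei 4 of 20 were higher and 0 lower (4.40% and 0.37% of all genes), with Smad3 at 0.39. Bmpr1b had too few UMIs in communities 1 and 8 to be counted there. Of 11 collagen genes 4 were higher, namely Col5a2, Col4a1 (52.2 against 9.42 CPM, 2.47), Col12a1 (1.96, but -0.41 against GCmat2) and Col4a2 (1.52), and Col19a1 (-1.56) and Col15a1 (-1.33) were lower. Col19a1 was at 0.83 against GCmat1 alone, and Col15a1 at 0.41 between female-class nuclei. The median of the collagen list was -0.13.

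Ion channels and receptors set the excitability of granule cells. Of 33 potassium channel genes, 6 were at least 2-fold higher and 8 lower (5.24% and 4.76% of all genes). Between female-class nuclei 4 of 31 were higher and 0 lower (4.40% and 0.37% of all genes), and between male-class nuclei 3 of 31 were higher and 11 lower (5.54% and 9.47% of all genes). Kcnip3, a calcium-binding channel partner and repressor also called DREAM, was at 275 against 38.4 CPM (2.84), but at 0.05 against GCmat2 alone. Kcnb2 was at 471 against 1359 CPM (-1.53), Kcnk2 (TREK-1) at 26.5 against 84.1 CPM (-1.67, but 0.41 against GCmat2) and Kcnn3 at 25.9 against 79.4 CPM (-1.62). Kcnq5 was higher over all nuclei (1.93) but at -1.04 when only the left-out nuclei of communities 1 and 8 were used.

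Of 23 calcium and sodium channel genes, Cacna1g, a T-type channel, was higher (51.9 against 13.2 CPM, 1.98), also between female-class nuclei (1.45). Cacna1i, Scn9a and Scn1a (58.8 against 120 CPM, -1.02) were lower, but none of these lower genes passed 2-fold between female-class nuclei. Of 21 glutamate receptor genes only Grik1 (3.09) and Grm8 (2.57) were higher and Grik3 (-1.41) lower, and the abundant Gria1, Gria2, Grin1 and Grin2b lay between -0.41 and 0.17. Grik1 had enough UMIs only when all nuclei were pooled, and Grik3 was at -0.30 between female-class nuclei and -0.23 against GCmat2. Of 12 GABA receptor genes none was higher and 2 were lower. Over all genes 5.24% were higher and 4.76% lower, and with 0 to 3 calls in each direction these counts are no result about the 3 lists. Gabrg3 was at -1.05, but at 0.53 between female-class and -2.64 between male-class nuclei. Gabrd, the delta subunit of extrasynaptic receptors, was at 6.34 against 22.3 CPM (-1.81), but within 2-fold between female-class nuclei (-0.88). Gabrb1 was at 2663 against 1390 CPM (0.94), and with only the left-out nuclei of communities 1 and 8 it and Gabra4 passed 2-fold (1.10 and 1.03).

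Granule cells gain calbindin and lose calretinin as they mature. Of 4 mature granule cell genes Calb1, the calcium-binding protein calbindin, was at 54.6 against 118 CPM (-1.12) and Ntng1, netrin G1, at 39.1 against 89.9 CPM (-1.20), Icam5 was at -0.79 and Grin2a at 0.36. Calb1 was also lower against GCmat1 (-1.37), but not against GCmat2 (0.04). Ntng1 was at -3.56 against GCmat2, at -2.02 between male-class nuclei and at -0.15 between female-class nuclei. Of 5 immature granule cell genes Elavl2 (1.54) and Calb2 (1.37) were at least 2-fold higher over all nuclei, and the median was 0.90. Over all genes 5.24% were higher and 4.76% lower. In the left-out nuclei of communities 1 and 8 the median of the immature genes was -0.50, and Elavl2 was at -0.32. Between female-class nuclei 5 of 5 immature genes were higher, with a median of 2.19 (4.40% of all genes were higher). Between male-class nuclei 0 of 3 were higher (5.54% of all genes). Against GCmat1 alone 5 of 5 were higher, with a median of 1.18 (6.69% of all genes).

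Granule cells of the dorsal and the ventral dentate gyrus differ in a few genes. Over all genes 5.24% were higher and 4.76% lower. Of 5 dorsal genes Pdzd2 was higher (1372 against 470 CPM, 1.54, but 0.46 between female-class nuclei) and Spata13 lower (22.8 against 59.6 CPM, -1.39), although Spata13 was at -3.59 between male-class and 0.33 between female-class nuclei. Of 3 ventral genes Nr2f2, a nuclear receptor also called COUP-TFII, was higher (11.8 against 3.07 CPM, 1.94, but 0.42 against GCmat2). Of 6 neuropeptide and calcium-binding genes Penk (2.40), Npy (1.82) and Calb2 were higher and Calb1 lower. The median of this list was 0.58 over all nuclei but -1.07 in male-class nuclei, where 3 of its genes had enough UMIs.

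Lists of genes that respond to stress, hormones or the time of day were also counted. Of 10 glucocorticoid-response genes Sgk1, a serum- and glucocorticoid-induced kinase, was at 209 against 63.7 CPM (1.71) and Errfi1 at 48.3 against 20.9 CPM (1.21), while Fkbp5 (0.09) and Per1 (0.07) were within 2-fold. Between female-class nuclei none of 8 passed, with Sgk1 at 0.72 and Errfi1 at 0.40. Of 18 clock genes Per2 was higher (1.19, but 0.73 between female-class nuclei and 0.06 against GCmat2), and the output factors Hlf (11.9 against 27.4 CPM, -1.21) and Tef (49.5 against 104 CPM, -1.07) were lower. Hlf was at -2.73 in male-class and 0.31 in female-class nuclei. Of the clock genes 4 of 14 were lower between male-class nuclei, none of 15 between female-class nuclei, and 7 of 18 with only the left-out nuclei of communities 1 and 8 (9.47%, 0.37% and 14.6% of all genes). Of 11 heat shock and unfolded protein response genes only Hsph1 was higher (49.3 against 17.3 CPM, 1.51), and of 4 interferon and antigen presentation genes only Irf1 was past 2-fold (-1.31). Between female-class nuclei Hsph1 was at 0.82 and Irf1 at -0.23. In the pooled comparison 5.24% of all genes were higher and 4.76% lower. Of 5 nuclear long non-coding RNAs Neat1 (22.1 against 4.43 CPM, 2.31) and Snhg11 (1.15, but -0.56 against GCmat2) were higher, and Malat1 was at 0.59.

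**Figure D5:**
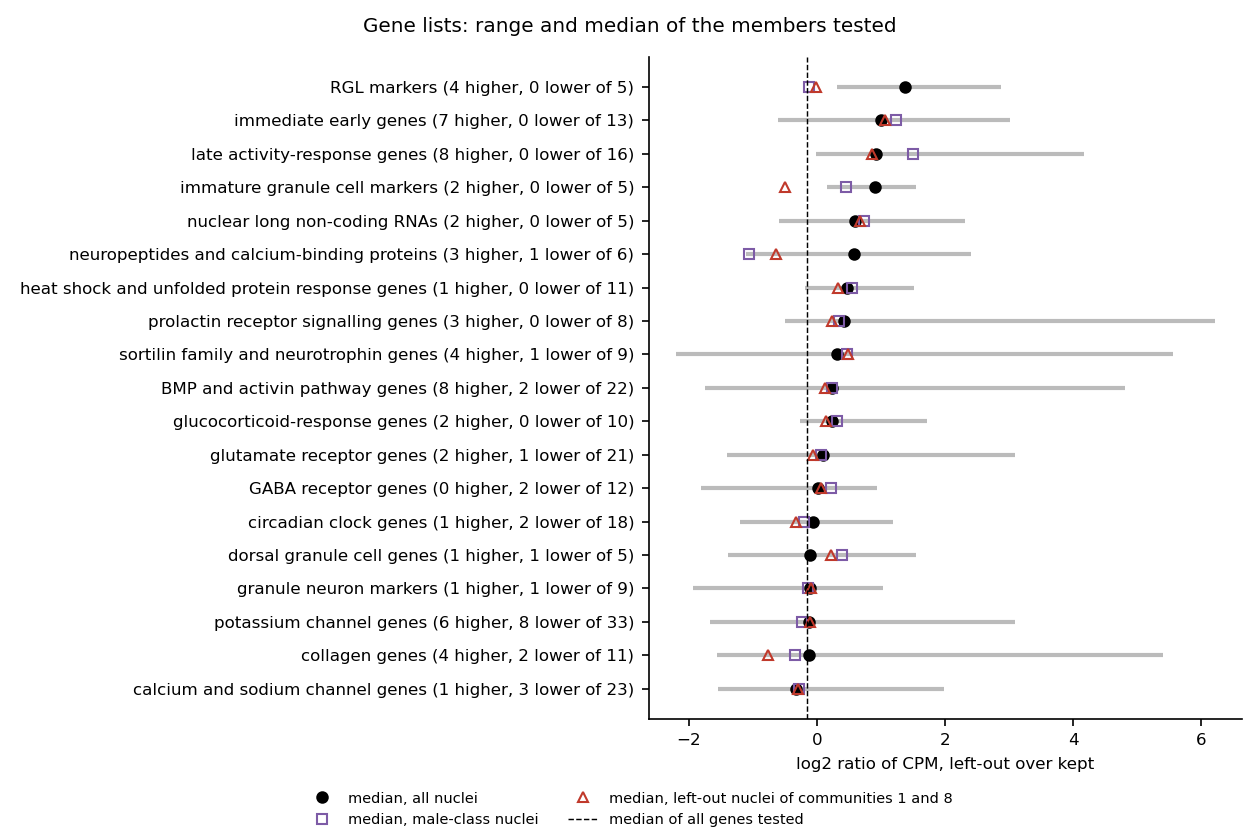
Range (grey) and median (black) of the log2 ratio, left-out over kept w4 granule nuclei, for the lists with at least 5 genes tested, with the medians in male-class nuclei (purple) and with only the left-out nuclei of communities 1 and 8 (red); the dashed line is the median of all genes tested, -0.16. Medians of the immediate early and late activity-response genes are 0.87 or above in these 3 sets, but 0.81 and 0.21 in female-class nuclei, which are not drawn, whereas those of RGL and immature granule cell genes are -0.02 and -0.50 in communities 1 and 8.

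Markers of other cell types lay on both sides of 0 when all left-out nuclei were pooled. All 5 RGL genes tested had a ratio above 0 and 4 were at least 2-fold higher (5.24% of all genes), among them Sox5 (41.1 against 5.59 CPM, 2.88) and Hopx (1.37). The oligodendrocyte genes Mog (11.6 against 1.61 CPM, 2.85) and Mag (7.35 against 0.857 CPM, 3.10), the endothelial Flt1 (log2 ratio between 3.39 and 5.14), the astrocyte gene Htra1 (1.35) and Gad2 (1.98) of interneurons were also at least 2-fold higher. Of the same lists Gad1 of interneurons was at -0.19 and Slc1a2 of astrocytes at -0.01. The latter pools opposite differences, with Slc1a2 at -1.37 between male-class nuclei, 1.35 between female-class nuclei and -1.67 with only the left-out nuclei of communities 1 and 8. In that set 2 of 2 astrocyte genes were lower (14.6% of all genes), and between female-class nuclei 2 of 2 were higher (4.40% of all genes). In the pooled comparison the summed level of the astrocyte list was 1.05 times and that of the interneuron list 0.979 times that of kept nuclei. The NPC gene Mcm6 was lower (7.23 against 14.5 CPM), the precursor gene of oligodendrocytes was at -0.34 and the median of 3 microglia genes was -0.33. The summed level of the RGL genes was 124 CPM in left-out and 56.3 CPM in kept granule nuclei, and that of the oligodendrocyte genes 136 and 69.4 CPM. With only the left-out nuclei of communities 1 and 8 the median of the RGL genes was -0.02, and Sox5 was at 0.12. In that set Mog, Mag and Flt1 had too few UMIs to be counted. Of the 4 genes of the CA3 list Spock1 (18.3 against 2.22 CPM, 3.05) and Pvrl3 (33.9 against 4.64 CPM, 2.87) were at least 2-fold higher and Iyd (2.98 against 6.60 CPM, -1.15) lower, and all 3 passed 2-fold there too. Against GCmat2 alone Pvrl3 was at -0.06.

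In w8 the ratios of the 4 markers were smaller than in w4. Of 10636 genes tested, 277 (2.60%) were at least 2-fold higher and 90 (0.846%) lower in the 268 left-out nuclei than in the 3264 kept granule nuclei of w8. Prlr was at 7.89 against 4.99 CPM there (log2 ratio 0.66, -0.09 to 1.34), Col5a2 at 1.18 against 1.61 CPM (-0.45, -2.78 to 1.19), Tll1 at 34.7 against 9.01 CPM (1.95) and Sorcs3 at 180 against 60.8 CPM (1.56). Rgs20 (5.47), Sorcs1 (4.86), 2610203C20Rik (4.54) and Ptprt (3.87) had the highest ratios of the named genes in w8. Of the genes at least 2-fold higher in w4, 391 were tested in w8 and 115 were higher in both weeks, which is 29.4% of these and 44.4% of the 259 higher in w8. Of 499 lower genes tested in w8, 7 were lower in both weeks.

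Most nuclei of w8 were male-class. Male-class nuclei made up 70.9% of the left-out and 77.8% of the kept granule nuclei of w8, and the summed markers of those kept nuclei were at 76.4 CPM (73.2 to 79.7), mostly Sorcs3. Prlr was at 5.17 CPM in GCmat1 and 0.903 CPM in GCmat2 of w8. The left-out nuclei of w1 and w2 were at 188 and 109 CPM for the 4 genes together, against 1276 CPM in w4. Most of this was Sorcs3, at 153 CPM in w1 and 80.7 CPM in w2, whereas Prlr was at 5.71 and 1.06 CPM. No kept neuronal group of any week had a Prlr level above the 32.0 CPM of GCmat1 in w1, which rests on 5 UMIs in 17 nuclei.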

How the data were processed

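Nuclei from 4 libraries (w1, w2, w4 and w8, each 1 pool of 4 mice) were analysed. The authors aligned reads to mm10 with STARsolo 2.7.4a over exons and introns and deposited raw UMI counts per gene and nucleus. The deposited table of log2 expression values was used only for its column names and for the cluster of each kept nucleus. Library totals were 15483883 to 41872566 UMIs.

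UMIs were summed over the nuclei of a group and divided by all UMIs of the group (counts per 1e6, CPM). X- and Y-linked genes were left out of the comparison, and genes needed at least 100 UMIs over both groups. Poisson, Clopper-Pearson and binomial intervals (95%) cover counting error only. With 1 pool per group no test or replicate error was possible, and a difference is counted from 2-fold. Doublets were scored with the Scrublet method of scanpy 1.11.5 (expected rate 0.06) and left in, with values without them as an alternative. Communities were found by Louvain clustering (igraph 0.11.9) on 20 principal components of 3000 genes with 40 neighbours at resolution 1. TMM and RLE factors came from edgeR 4.0.16. Gene positions were those of GENCODE M21 and promoters those of RefSeq (GRCm38.p6). The counting steps were tested on simulated data.

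The members and gene lists were chosen with earlier results of these data known. Genes were named as the 4 markers, the 15 highest and 15 lowest ratios (at least 500 UMIs, and a UMI in 10% of nuclei of the higher group) and up to 4 members of each list with the largest ratios. Other list members were named after their values were seen. Settings with both sex class and doublet calls were added after seeing the data. Some items are not reported here.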

Additional observations from a re-analysis of the deposited data

How the results depend on the processing

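No paired analysis was possible because each week is 1 pool without replicates, and for the same reason no replicate could be left out. The files do not say why a nucleus was removed, so its selection and its expression cannot be told apart. The main counts were 578 genes higher and 525 lower and the main log2 ratio of the summed markers was 4.72. The cause of the changes below was not tested. Against GCyoung, GCmat1 or GCmat2 alone the marker ratio was 5.41, 5.51 and 0.58, with 1016 genes higher against GCmat2 and 341 lower against GCmat1. Against GCmat2 alone the log2 ratios of Sorcs3 (-0.70), Pappa (-0.89), Ntf3 (0.24), Vwa3a (1.32) and B3galt5 (0.81) changed sign, the last 3 with intervals that include 0. With only left-out nuclei nearest to granule clusters the marker ratio was 4.84 and 917 genes were lower. Without called doublets it was 4.85, and with only communities 1 and 8 it was 5.05 with 1536 genes lower. Between male-class nuclei it was 4.85, and between female-class nuclei 2.98 with 37 genes lower. Restricted also to nuclei nearest to granule clusters and not called doublets, which was chosen after seeing the data, it was 4.92 in male-class nuclei with 904 genes lower, and 3.20 in female-class nuclei with 169 higher and 141 lower. The mean of per-nucleus CPM gave 4.59. TMM and RLE scaling both gave 4.88, with 331 and 329 genes lower. Thinned nuclei gave 326 higher and 290 lower. A minimum of 20 UMIs gave 1224 and 894, of 500 UMIs 252 and 271, and no minimum 2005 and 1200. At 1.5-fold 978 and 1793 genes passed, and at 4-fold 230 and 22. The share of left-out nuclei in communities with a majority left out was 71.4% at resolution 2. The male-class share was 67.5% with 4 Y-linked genes against Xist alone and 60.3% with at least 3 sex-linked UMIs required. The doublet share was 14.0% by rank of the score. The other 41 values of these results kept their direction, with counts of genes or nuclei within 1.5 times the main count (412 to 694 genes higher, 456 to 783 lower) and other values within the 95% interval of the main value. Of 402 values for the 30 named genes 5 changed sign.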
